A study of Mus musculus with 14 samples.

Results

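The mRNAs of 9 transcription factors that mark the layers of the cerebral cortex were examined in RNA-SEQ of newborn mouse brain. They were chosen by name: Cux1, Cux2, Pou3f2 and Rorb, which mark layers 2 to 4, and Bcl11b, Fezf2, Tbr1, Foxp2 and Tle4, which mark layers 5 and 6. All 9 were among the 17927 genes in the counts and none was lost to a filter on low values. The samples were whole brains of untreated pups at P2, 7 of them WT and 7 Capn15 KO, from 6 litters. Capn15 encodes an intracellular cysteine protease of the calpain family. The mouse lines were made on C57BL/6J, and the paper's methods describe a Capn15 allele with a lacZ-Neo cassette and a floxed allele without saying which of them gave the brains for sequencing. The column names of the counts carry a sex and a letter from A to F, read here as the litter. WT brains came from 2 females and 5 males and Capn15 KO brains from 4 females and 3 males. Every litter held both genotypes, with 4 brains in litter B and 2 in each of the others. The Capn15 KO brains were female and the WT brains male in litters A, B and E, the reverse held in litters C and D, and both were male in litter F, so a plain difference between littermates mixes genotype with sex in all litters but F.

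The cortex is built from the inside outwards: neurons of layers 6 and 5 are born first and those of layers 4 to 2 migrate past them. Which projection a neuron makes follows largely from transcription factors that restrain each other. Fezf2 and Bcl11b (also called Ctip2) drive the fate of layer 5 neurons that project to the brainstem and spinal cord, and Tbr1 drives that of layer 6 neurons that project to the thalamus. None of the 9 is restricted to the cortex. Bcl11b and Foxp2 are strong in the striatum, Rorb and Foxp2 are found in the thalamus, and Pou3f2 (also called Brn2) is active in progenitors and neurons of many regions, so that a whole-brain value sums all of these sources. In such bulk samples, fewer cells of a type and less RNA per cell cannot be told apart.

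Promoter sequences were taken from RefSeq, on GRCm38.p6, for 4 members: Pou3f2 and Rorb, which had opposite profiles across litters, Tbr1, which varied most between litters, and Fezf2, which had the largest difference between genotypes. Each runs 5′ to 3′ on the strand of the gene, from 250 bases before a transcription start to 50 after it. Capitals mark a CCAAT box (CCAAT or its reverse complement ATTGG) or a GC box (GGGCGG or CCGCCC); overlapping matches run together.
Pou3f2, chr4:22488317-22488616, minus strand: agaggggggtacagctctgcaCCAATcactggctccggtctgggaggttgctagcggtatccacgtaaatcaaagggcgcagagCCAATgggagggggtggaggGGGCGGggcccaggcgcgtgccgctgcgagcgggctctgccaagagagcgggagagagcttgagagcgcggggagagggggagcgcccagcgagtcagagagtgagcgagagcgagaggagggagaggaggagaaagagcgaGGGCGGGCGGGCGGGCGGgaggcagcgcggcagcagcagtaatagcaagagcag
Rorb, chr19:19111147-19111446, minus strand: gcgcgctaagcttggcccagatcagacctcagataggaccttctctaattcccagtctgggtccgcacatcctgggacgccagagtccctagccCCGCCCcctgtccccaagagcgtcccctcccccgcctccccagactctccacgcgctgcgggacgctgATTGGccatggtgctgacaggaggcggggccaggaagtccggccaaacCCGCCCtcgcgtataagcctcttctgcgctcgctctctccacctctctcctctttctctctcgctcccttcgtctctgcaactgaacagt
Tbr1, chr2:61804203-61804502, plus strand: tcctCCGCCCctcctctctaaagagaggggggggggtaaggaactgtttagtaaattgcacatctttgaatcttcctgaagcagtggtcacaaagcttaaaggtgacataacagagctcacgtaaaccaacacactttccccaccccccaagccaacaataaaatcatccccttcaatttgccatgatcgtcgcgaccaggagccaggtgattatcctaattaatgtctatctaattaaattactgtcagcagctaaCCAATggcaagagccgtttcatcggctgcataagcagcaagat
Fezf2, chr14:12345816-12346115, minus strand: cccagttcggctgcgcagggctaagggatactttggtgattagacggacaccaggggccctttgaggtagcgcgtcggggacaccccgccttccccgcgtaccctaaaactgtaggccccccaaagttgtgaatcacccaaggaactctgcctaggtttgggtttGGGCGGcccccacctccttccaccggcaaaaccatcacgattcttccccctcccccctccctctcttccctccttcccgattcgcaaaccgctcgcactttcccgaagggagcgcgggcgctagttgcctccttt
Pou3f2 held 2 CCAAT boxes and 5 GC boxes, 4 of which overlapped in a single run. Rorb held 1 CCAAT box and 2 GC boxes, Tbr1 1 of each, and Fezf2 1 GC box. A CCAAT box was present in 37.4% and a GC box in 35.7% of 32851 promoter windows of the same length, and the letters TATAAA, present in 13.6%, were in none of the 4 windows. The windows of Pou3f2, Rorb and Fezf2 were rich in CG dinucleotides, with 24, 20 and 20, whereas Tbr1 had 7, which was also the median of all windows. The GC content of the Tbr1 window was 46.0%, against 67.7% for Pou3f2 and a median of 52.7%. RefSeq windows were found for 8 of the 9 members, all but Foxp2.

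By the gene models of GENCODE M21 on GRCm38, Cux1 lies at chr5:136248135-136567490 and Cux2 at chr5:121856366-122050102, both on the minus strand. Pou3f2 is a single-exon gene at chr4:22482780-22488366, and Bcl11b lies at chr12:107910403-108003602 and Fezf2 at chr14:12342094-12348189. Rorb (chr19:18930605-19111196) and Tle4 (chr19:14448150-14598051) are on the same chromosome, Tbr1 is at chr2:61802930-61814114 and Foxp2 at chr6:14901349-15441977. The exons of Cux1 share 394 bases with the antisense gene Gm16599, whose reads cannot be told apart from those of Cux1 if the counting ignored strand.

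The libraries held between 37620954 and 70910163 counts on genes, and a member had between 580 and 12747 counts in a library. Values are given as CPM, counts per 1000000 counts of a library scaled with TMM factors. Capn15 itself had a median of 26.2 CPM in WT, the highest library being at 27.3, and of 13.9 CPM in Capn15 KO, the lowest being at 12.2, and the WT brains were above the Capn15 KO brains in litters A to E. In litter F the order was reversed, with 18.7 CPM in the library labelled WT replicate 7 and 20.2 CPM in the library labelled Capn15 KO replicate 7, so that the targeted gene goes against these 2 labels. Its mean was 25.4 ± 3.07 in WT and 14.5 ± 2.67 CPM in Capn15 KO (SD, n = 7 each). The log2 fold change was −0.81 (FDR = 0.0747, edgeR). The paper, from its own edgeR analysis, reports a larger decrease of Capn15, which passed its FDR cut-off. Reads of D630044L22Rik, the antisense neighbour of Capn15 that shares 1105 exonic bases with it, cannot be told apart if the counting ignored strand. Although the labels name neurons as the cell type, marker lists of other cells were well above 0: summed levels were 1340 to 1860 CPM for radial glia and astrocytes, 602 to 971 CPM for choroid plexus and 31.0 to 322 CPM for red blood cells.

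Per kilobase of exon, Tle4, a corepressor of the Groucho family that is high in layer 6 neurons, and Bcl11b, a zinc finger repressor, had the highest levels of the 9. In WT, Tle4 was at 19.7 ± 1.44 and Bcl11b at 19.4 ± 1.5 CPM per kilobase (SD, n = 7). These 2 could not be ordered, since Tle4 was above Bcl11b in 4 of 7 WT and in 4 of 7 Capn15 KO libraries. The POU-domain factor Pou3f2 came next at 14.2 ± 2.12, and its lowest WT library, at 12.4, was above the highest WT library of Cux2, at 9.62. The cut-like homeobox factors Cux2 and Cux1, which regulate dendrites and spines of upper layer neurons, were at 9.29 ± 0.348 and 8.32 ± 0.628 CPM per kilobase. Tbr1, a T-box factor, was at 6.55 ± 1.02, and Foxp2, a forkhead repressor, at 6.21 ± 0.781. The zinc finger factor Fezf2 was at 5.32 ± 0.379 and the orphan nuclear receptor Rorb, which marks layer 4, at 4.14 ± 0.508. From Cux2 downwards, the WT ranges of each pair of neighbours overlapped. Within single WT libraries, Cux2 was above Cux1, Cux1 above Tbr1 and Fezf2 above Rorb in 7 of 7, and Tbr1 above Foxp2 and Foxp2 above Fezf2 in 6 of 7. In Capn15 KO the ranges of Cux1 and Tbr1 and those of Fezf2 and Rorb did not overlap, and Foxp2 was above Fezf2 in 4 of 7. The order of the means was the same in Capn15 KO. Lengths are exonic lengths of GENCODE M21, which for Cux1 include exons of its alternative product CASP, so the levels of Cux1 and of other genes with many isoforms depend on the annotation.

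**Figure D1:**
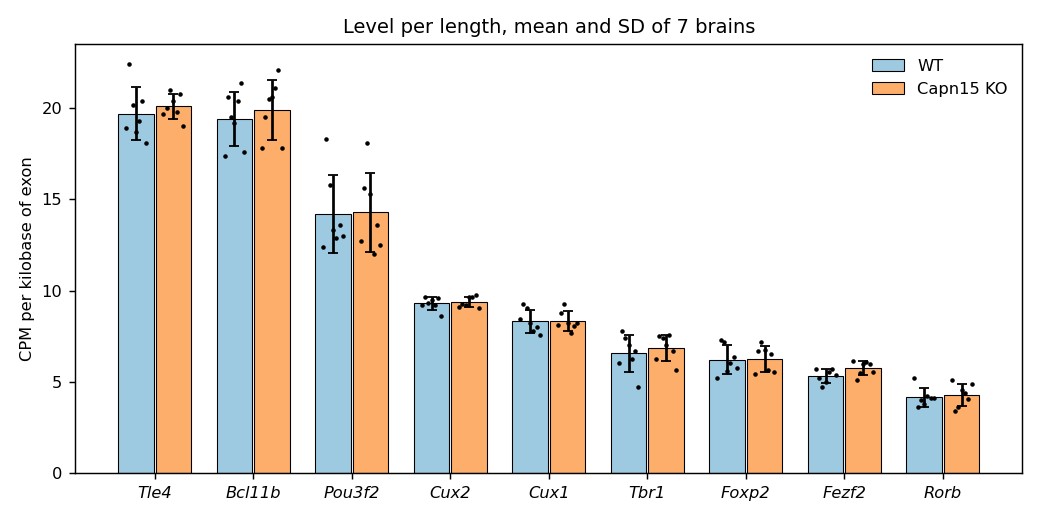
Level of each layer factor in CPM per kilobase of exon, as means (bars), SD (error bars) and single libraries (points) of 7 WT and 7 Capn15 KO brains. Tle4 and Bcl11b lie highest, near 19.7 and 19.4 in WT, and Rorb lowest, at 4.14, in the same order in both genotypes.

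The main question of the design is what loss of Capn15 changes. None of the 9 layer factors passed the test between Capn15 KO and WT. This was edgeR's quasi-likelihood test with litter and sex in the model, at an FDR under 0.05. In it, 1 of the 17927 genes, or 0.00558%, passed, and Capn15 itself did not (FDR = 0.0747). The paper's own edgeR analysis, also with sex and litter as variables, reported more genes at this cut-off. Capn15 was among them and none of the 9 members was. At an unadjusted p under 0.05, 2 members were counted, Fezf2 and Tbr1, beside 5.14% of all genes. The count was 1 with genotype and litter only and without replicate 7 of both genotypes, and 3 without litter B. It was 0 with genotype only and with genotype and sex, where 260 and 263 genes were counted, against 922 in the main fit. All 9 estimates lay above 0 (8 with upper-quartile factors, where Cux1 was just below 0, and 7 to 9 over all alternative fits, 7 being reached with genotype and sex only and without WT replicate 4 or Capn15 KO replicate 3 or 4), as did 51.4% of all genes, and the WT and Capn15 KO ranges of CPM overlapped for each of the 9. The median log2 fold change of the members was 0.042, against 0.0015 over all genes, and the median of the absolute values was 0.042 against 0.036. Over the 9 members, 95% intervals reached from a fold of 0.938, the lower bound of Pou3f2, to 1.16, the upper bound of Fezf2. The brains come from separate animals, but littermates are not independent, and the p-values measure the spread left after litter and sex.

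Fezf2, a selector of subcerebral projection neurons, had the largest estimate. In WT it lay between 14.3 and 17.4 CPM with a median of 16.4, and in Capn15 KO between 15.5 and 18.7 CPM with a median of 18.2. Capn15 KO was higher in 6 of 7 same-numbered pairs and, by litter means, in all 6 litters, by 0.04 to 0.26 on the log2 scale. The means were 16.2 ± 1.16 and 17.5 ± 1.19 CPM (SD, n = 7 each), a log2 fold change of 0.13 (SE 0.0413, 95% interval 0.04 to 0.22, FDR = 0.746). The exact permutation test of the 7 against 7 libraries gave p = 0.06, and the exact sign-flip test over the 7 pairs gave p = 0.0312, where 0.0156 is the smallest it can give; both were two-sided and not adjusted for the 9 members. The sign-flip test takes no account of sex or of the 2 pairs that share litter B, so its p is too small to the extent that those pairs are not independent. Without the 2 libraries of litter F, in which Capn15 went against the labels, the log2 fold change of Fezf2 was 0.14.

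Tbr1, which specifies corticothalamic neurons, ranged more widely. In WT it lay between 25.8 and 42.8 CPM with a median of 36.6, and in Capn15 KO between 31.1 and 41.4 CPM with a median of 38.5. The lowest library of each genotype was that of litter F. Capn15 KO was higher in 5 of 7 pairs, most in litters D and F, by 0.28 and 0.27 on the log2 scale, while the 2 genotypes were both at 36.6 CPM in litter E. Means were 35.9 ± 5.60 and 37.7 ± 3.90 CPM (SD, n = 7 each), a log2 fold change of 0.10 (SE 0.0400, FDR = 0.886). Its exact permutation test gave p = 0.494 and its exact sign-flip test p = 0.156. Without both libraries of litter F the log2 fold change was 0.07.

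Bcl11b, the partner of Fezf2 in layer 5, lay between 141 and 173 CPM in WT, with a median of 158, and between 145 and 180 CPM in Capn15 KO, with a median of 167. Its log2 fold change was 0.04 (95% interval −0.01 to 0.10), with Capn15 KO higher in 6 of 7 pairs. Tle4 lay between 103 and 128 CPM in WT, with a median of 110, and between 108 and 120 CPM in Capn15 KO, with a median of 114. Its log2 fold change was 0.04 (95% interval −0.03 to 0.11). Foxp2, known for its part in vocal learning and for its expression in layer 6, lay between 85.4 and 119 CPM in WT, with a median of 98.5, and between 88.3 and 118 CPM in Capn15 KO, with a median of 107. Its log2 fold change was 0.02 (95% interval −0.06 to 0.11). For these 3 deep layer factors the FDR was 1.0, and no interval reached a fold above 1.08.

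Among the factors of layers 2 to 4, the estimates of Cux1, Cux2 and Pou3f2 were 0.01, 0.02 and 0.01 on the log2 scale, each with FDR = 1.0. Cux1 lay between 151 and 185 CPM in WT, with a median of 164, and between 153 and 185 CPM in Capn15 KO, with a median of 165. Cux2 was the steadiest member, between 86.7 and 97.0 CPM in WT, with a median of 94.1, and between 91.0 and 98.2 CPM in Capn15 KO, with a median of 93.5. Its coefficient of variation over the 14 libraries was 3.34%, against 14.5% for Pou3f2. Pou3f2, which acts with its paralog Pou3f3 in upper layer neurons, lay between 69.4 and 102 CPM in WT, with a median of 74.4, and between 67.2 and 101 CPM in Capn15 KO, with a median of 75.8. The highest libraries of both genotypes belonged to litter B.

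Rorb, which directs the clustering of layer 4 neurons around thalamic inputs, lay between 40.2 and 57.6 CPM in WT, with a median of 45.3, and between 37.8 and 56.2 CPM in Capn15 KO, with a median of 48.6. Its log2 fold change was 0.08 (SE 0.0412, 95% interval −0.01 to 0.17, FDR = 1.0). Capn15 KO was higher in 3 of 7 pairs, and the differences by litter went from −0.12 in litter B to 0.27 in litter C. They were −0.04, −0.12 and 0.0 in litters A, B and E, where the Capn15 KO brains were female, 0.27 and 0.06 in litters C and D, where they were male, and 0.25 in litter F. With single libraries left out, the fitted log2 fold change went from 0.04 (without WT replicate 7) to 0.13 (without replicate 5 of WT). Thus the Rorb values differed between genotypes by less than the spread between brains.

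**Figure D2:**
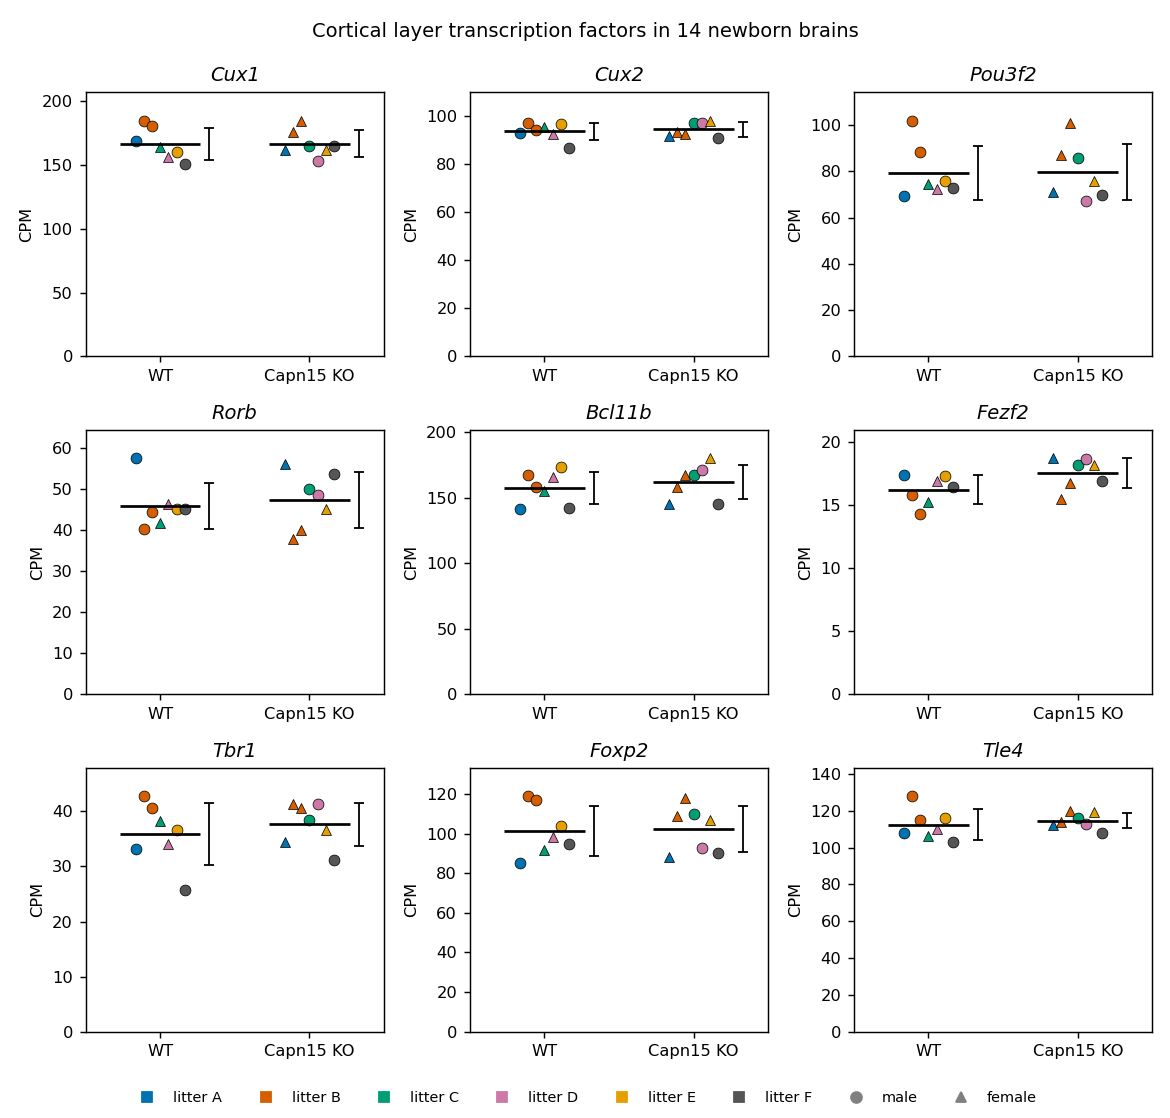
CPM of the 9 layer factors in each of 14 brains, by genotype, with litter as colour and sex as symbol; black lines are means and the bars beside them SD (n = 7). WT and Capn15 KO overlap in every panel. Litter B (4 brains) lies high for Pou3f2, Foxp2, Cux1 and Tbr1 and is lowest on average for Rorb and Fezf2.

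The balance between deep and upper layer factors was followed in each brain as the mean log2 CPM of the 5 deep members minus that of the 4 upper members. It was −0.45 ± 0.08 in WT, from −0.58 to −0.36, and −0.41 ± 0.09 in Capn15 KO, from −0.54 to −0.31 (SD, n = 7 each). The 2 lowest WT values and the 2 lowest Capn15 KO values belonged to litters A and F in both genotypes. The ranges overlapped, while Capn15 KO was higher than its same-numbered WT brain in 6 of 7 pairs, by 0.03 to 0.08, and differed by −0.02 in the pair of litter F. As this index was built from the chosen members no test was made of it.

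Sex was the other term in the model. None of the 9 members passed the test between males and females, where 12 genes, or 0.0669%, did. At an unadjusted p under 0.05 only Rorb was counted of the 9, beside 5.04% of all genes. Rorb averaged 48.2 CPM in the 8 males and 44.6 CPM in the 6 females, a log2 difference of 0.13, male over female (SE 0.0445, FDR = 0.927). All 9 fitted differences were above 0, and the share of all genes above 0 was not counted for sex. Yet the plain means of Cux1, Pou3f2, Bcl11b and Tbr1 were higher in females, since the fit compares the sexes within litters and genotypes.

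More layer factors differed between litters than between genotypes or sexes. Of the 9 members, 6 differed between the 6 litters (FDR under 0.05), beside 29.6% of all genes: Tbr1, Bcl11b, Pou3f2, Rorb, Foxp2 and Cux1. At an unadjusted p under 0.05 the count was 8, beside 41.0% of all genes, and Cux2 was the one left out. Among the 6 called members, the highest and lowest litter means differed by 1.17-fold for Cux1 to 1.46-fold for Tbr1. The F and FDR of each gene test all litters jointly, not the pair of litters between which a fold is given. In a fit without litter B, the only litter with 4 brains, 1 member, Bcl11b, was called, beside 1.09% of all genes. That fit held 10 libraries, so the loss of litter B and the loss of 4 libraries cannot be told apart.

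Pou3f2 showed the strongest mark of litter B. Its 4 libraries there held between 87.0 and 102 CPM, above every library of the other litters, which lay between 67.2 and 85.6 CPM. The fold between litters B and D, its highest and lowest on average, was 1.36 (joint test of the litters, F = 12.7, FDR = 0.00129, edgeR). Foxp2 was at 109 to 119 CPM in litter B and at 85.4 and 88.3 CPM in litter A, a fold of 1.33 between the litter means (FDR = 0.00175, edgeR). Cux1 was at 176 to 185 CPM in litter B and at 151 to 169 CPM elsewhere, so that litter B again stood above all other brains (FDR = 0.00642, edgeR).

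Rorb had the opposite profile. Fezf2, which was not called between litters, likewise had its highest litter mean in litter A and its lowest in litter B. Rorb was highest in litter A, at 57.6 and 56.2 CPM, and lowest on average in litter B, at 37.8 to 44.5 CPM, a fold of 1.40 (F = 12.3, FDR = 0.0015, edgeR). The 2 brains of litter A were the highest of all 14. The ratio of Rorb to Pou3f2 in CPM ran from 0.393 in a WT brain of litter B to 0.83 in the WT brain of litter A, and from 0.398 to 0.79 in Capn15 KO brains of the same 2 litters.

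Tbr1 had its lowest litter mean in litter F, as did Cux2 and Tle4. For Tbr1, litter F held 25.8 and 31.1 CPM, its 2 lowest values, and litter B 40.6 to 42.8 CPM (F = 16.9, FDR = 0.000464, edgeR). Bcl11b was highest in litter E, at 173 and 180 CPM, and lowest in litters A and F, at 141 to 145 CPM (F = 14.2, FDR = 0.000876, edgeR). Its SD between litter means was 0.12 on the log2 scale, against 0.04 within litters. Fezf2, Tle4 and Cux2 were not called, with F values of 3.57, 3.64 and 2.63 and FDRs of 0.079, 0.0757 and 0.157.

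**Figure D3:**
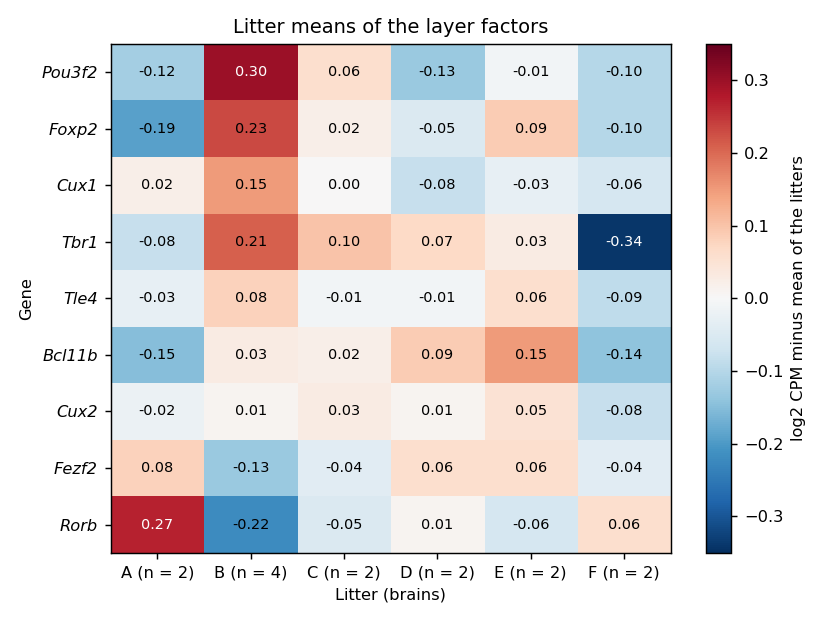
Mean log2 CPM of each layer factor in each litter, minus the mean of the 6 litters; columns are litters with their number of brains and rows are genes. Litter B reaches 0.30 for Pou3f2 and −0.22 for Rorb, and litter F −0.34 for Tbr1.

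Other cell lists moved with litter as well, and their part in the litter differences was not tested. In litter B the summed level of 5 Purkinje cell markers averaged 238 CPM, against 299 to 342 CPM in the other litters, and that of 7 radial glia and astrocyte markers 1460 CPM, against 1590 to 1820 CPM. The 5 pallial glutamatergic markers, which label cortical excitatory neurons, averaged 385 CPM in litter B and 373 to 407 CPM in the others.

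The genes whose profile was most like that of each member were ranked by Pearson's r of log2 CPM over the 14 libraries, after the genotype means were taken out, among 15227 genes with at least 1 CPM on average. The 14 libraries come from only 6 litters, so these are descriptions without a test. Pou3f2 was followed most closely by the splicing factor Syf2 (r = 0.989) and the translation initiation factor Eif4b (r = 0.986), Foxp2 by Rnd3 (r = 0.967), and Cux1 by the adaptor protein Cd2ap (r = 0.971). Tbr1 was followed by the chromatin protein Pogz (r = 0.982). Rorb was followed by Stxbp5 (r = 0.972), which restrains vesicle fusion. For Bcl11b it was Gmip (r = 0.931), for Fezf2 Dtx4 (r = 0.928), for Tle4 Kidins220 (r = 0.942), a scaffold of neurotrophin receptors, and for Cux2 the interneuron factor Lhx6 (r = 0.903).

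With litter means removed, r of these genes, which had been picked on the same libraries, was 0.950 for Pou3f2 and Syf2, 0.976 for Tbr1 and Pogz, 0.880 for Rorb and Stxbp5, 0.934 for Fezf2 and Dtx4, and 0.669 for Bcl11b and Gmip. Among the members themselves, r was above 0 in 24 of 36 pairs. Pou3f2 and Foxp2 were the most alike (r = 0.903), and Rorb ran against both, with r = −0.682 to Pou3f2 and −0.713 to Foxp2. Fezf2 also ran against both, with r = −0.546 and −0.481, and had r = 0.643 to Rorb. Within litters the sign changed, to 0.128 and 0.454 for Rorb and to 0.889 and 0.698 for Fezf2. Of the 36 pairs, 32 were then above 0. In each litter of 2 brains, the deviations left after this are mirror images that hold a single difference between littermates. Sex was not removed, so outside litter F that difference also mixes in sex. The r values within litters therefore rest on fewer independent values than there are brains.

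The partners of the layer factors were 26 other regulators of cortical projection neurons. None of the 26 passed the test between genotypes, and their median log2 fold change was 0.048, against 0.0015 over all genes. At an unadjusted p under 0.05, 9 were higher and 0 lower in Capn15 KO, beside 5.14% of all genes in both directions, and 24 of the 26 estimates lay above 0 (23 with upper-quartile factors or total counts only, 21 with genotype only, with genotype and litter or without litter B, and 19 to 25 with single libraries left out, lowest without replicate 4 of either genotype). With the likelihood ratio test of edgeR, 2 partners were called, among them Nr4a2. Between litters 15 of the 26 were called, beside 29.6% of all genes.

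Nr4a2, a nuclear receptor of subplate neurons and of midbrain dopamine neurons, was at 35.1 ± 2.27 CPM in WT and 38.9 ± 1.85 CPM in Capn15 KO (SD, n = 7 each), a log2 fold change of 0.16 (SE 0.037, FDR = 0.371, edgeR) with Capn15 KO higher in 7 of 7 pairs. Lhx2, a LIM factor of the cortical primordium, was at 38.3 ± 2.67 and 41.8 ± 3.31 CPM, also higher in 7 of 7 pairs (log2 fold change 0.14, FDR = 0.47). Eomes, which marks intermediate progenitors, had the largest estimate and a wide interval (0.19, 95% interval −0.02 to 0.40), and Neurod1 the lowest (−0.04, 95% interval −0.17 to 0.09).

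**Figure D4:**
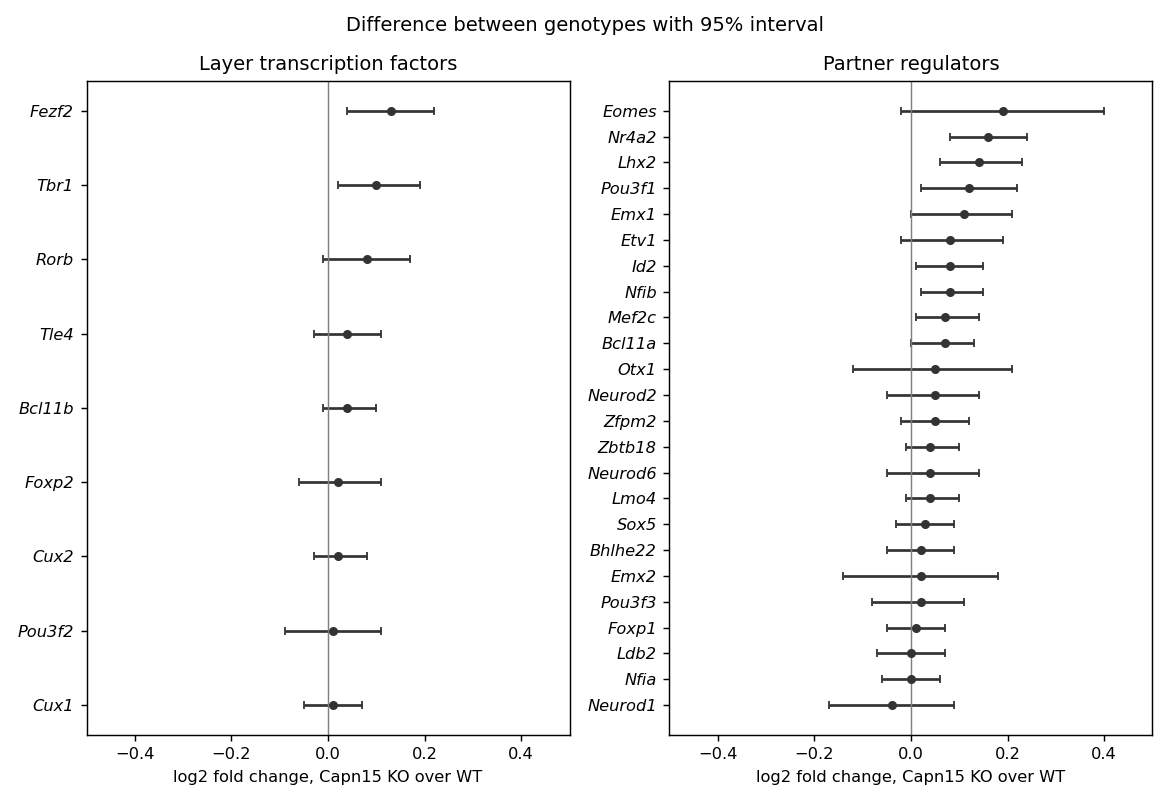
Log2 fold change, Capn15 KO over WT, with 95% interval, for the 9 layer factors (left) and 24 of the 26 partner regulators (right), from edgeR with litter and sex in the model (7 against 7 brains). Fezf2 is highest of the members at 0.13 and Eomes of the partners at 0.19; no gene passed an FDR of 0.05.

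Genes that mark the layers without being among the 9 were not called either, in any of 5 lists. Upper layer and callosal genes (6) had a median log2 fold change of 0.049, from −0.05 for Ptn to 0.08 for Mdga1. Layer 5 and subcerebral genes (6) had −0.008, from −0.05 for Igfbp4 to 0.02 for Crym, and layer 6 and corticothalamic genes (5) had 0.023, from −0.01 for Hs3st4 to 0.07 for Nfe2l3. Subplate genes (6) had −0.011, from −0.11 for Cplx3 to 0.04 for Nxph4. Of the 5 Cajal-Retzius genes, Reln, the secreted guide of layer formation, was at 0.12 and Lhx5 at −0.18, with a median of −0.002.

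Lists for regions and other cells were set beside these, and no gene of them passed the test made here. In the paper's own edgeR analysis some genes of these lists, among them Ttr and Hoxc4, were called lower in Capn15 KO. The 5 pallial glutamatergic markers were all above 0 (median 0.073; summed level 360 to 404 CPM in WT and 381 to 416 CPM in Capn15 KO). The 8 hindbrain and spinal cord markers were all below 0 (median −0.241, from Hoxc4 at −0.53 to Hoxa2 at −0.05; 24.2 to 40.5 CPM in WT and 18.7 to 39.2 CPM in Capn15 KO). The 5 choroid plexus markers were also all below 0, each at an unadjusted p under 0.05 (median −0.265, from Ttr at −0.32 to Otx2 at −0.13; 735 to 971 CPM and 602 to 842 CPM). Their part in the small upward estimates of the layer factors was not tested.

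Lists for the other forebrain and hindbrain sources of these factors had medians near 0. They were −0.018 for 11 striatal (Tac1 −0.11, Six3 0.17) and −0.03 for 6 thalamic markers (Gbx2 −0.21, Tcf7l2 0.08). For 5 Purkinje cell markers the median was 0.006 (Car8 −0.05, Itpr1 0.02), and for 7 forebrain interneuron markers 0.016 (Dlx6 −0.07, Dlx2 0.20). Of the striatal markers 9 lay below and 2 above 0, and of the thalamic markers 4 below and 2 above. At an unadjusted p under 0.05, 2 striatal and 2 thalamic markers were lower and 2 interneuron markers higher, beside 5.14% of all genes. For general neuronal markers the median was 0.012 (Snap25 −0.03, Map2 0.02), for radial glia and astrocytes −0.01 (Aqp4 −0.07, Gfap 0.03) and for the oligodendrocyte lineage −0.048. Microglial markers had a median of 0.048 (P2ry12 −0.09, C1qa 0.14) and endothelial 0.03 (Pecam1 −0.06, Cldn5 0.10). Meningeal markers had −0.067 (Slc22a6 −0.31, Col1a1 0.14) and red blood cell markers −0.074 (Hba-a2 −0.15, Hbb-bt −0.04). All 6 oligodendrocyte lineage and all 5 red blood cell markers lay below 0, though none at an unadjusted p under 0.05.

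**Figure D5:**
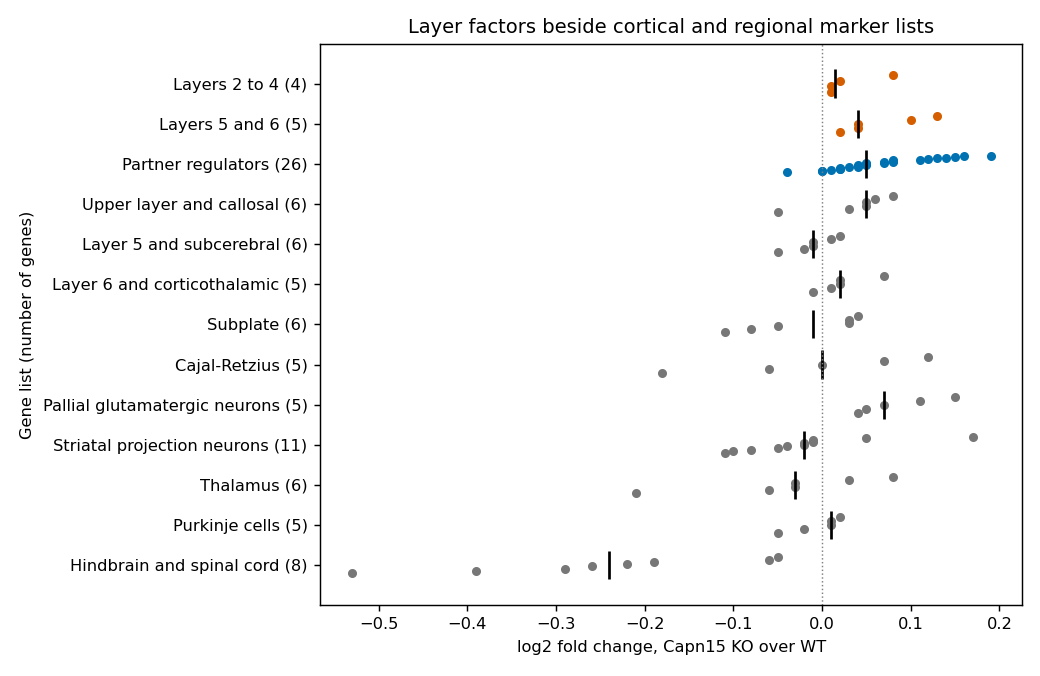
Log2 fold change, Capn15 KO over WT, of each gene (points) in the layer factors, the partner regulators and marker lists of layers and regions, with the list medians as black lines and the number of genes in brackets. Hindbrain and spinal cord markers all lie below 0 (median −0.241), while the 9 layer factors lie above 0, Cux1 so slightly that it turns with upper-quartile factors and in some other fits.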

How the data were processed

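RNA-SEQ libraries of 7 WT and 7 Capn15 KO mouse brains at P2 were used. The authors used Trimmomatic (phred 30 or more), STAR 2.7.8 with GRCm38 and HTSeq-count 0.11.1; the submitters' processing notes also name featureCounts. They deposited counts that are not normalized, for 17927 filtered genes. The paper names the ScriptSeq kit and a HiSeq instrument, and the labels name TruSeq Stranded and NovaSeq. The strand setting of the counting is not given in the sources used here.

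Genotype came from the labels. The count columns name sex and a letter, read here as the litter. Counts were fitted in R 4.3.3 with edgeR 4.0.16 (quasi-likelihood test, TMM factors, genes with at least 1 count, genotype, sex and litter as terms, all 14 libraries, Benjamini-Hochberg FDR under 0.05 over all genes). limma 3.58.1 and DESeq2 1.42.0 served as alternatives. Log2 CPM used a prior count of 2. Exact tests were two-sided; the smallest p of the 7 against 7 permutation is 0.000583. Python 3.11.15 with scipy 1.17.1 and pandas 2.3.3 made the summaries. Gene models were those of GENCODE M21, which held 17915 of the identifiers.

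Same-numbered WT and Capn15 KO brains carry the same letter in their column names, read here as the litter. Their deviations from the genotype means correlated between −0.467 and 0.443 (mean 0.123), against a mean of −0.0398 for brains of different litters. No library was a copy of another (lowest chi-square per gene 4.66, WT against Capn15 KO replicate 1). The 9 members, the partner and marker lists and the rule for named genes (the members, Capn15, the lowest and highest gene of each list, any partner, and the 3 genes most like each member) were chosen with earlier results of these data known. The values of some genes of these lists, which stay in every fit and count, are not reported here.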

Additional observations from a re-analysis of the deposited data

Results flagged for a closer look

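Within each genotype, the most extreme library of each member and of Capn15 was set against its nearest neighbour by Dixon's ratio of gap to range at its 95% critical value. Of 20 groups looked at, 4 stood out, and chance alone gives about 1 in 20. Cux2 was low in WT replicate 7, at 6.44 log2 CPM against 6.53 in the next library (ratio 0.58). Rorb was high in WT replicate 1, of litter A, at 5.85 against 5.54 log2 CPM (ratio 0.598), and its Capn15 KO littermate was also the highest of its genotype. Capn15 was high in the library labelled Capn15 KO replicate 7, at 4.34 against 3.87 log2 CPM (ratio 0.647), and low in the library labelled WT replicate 7, at 4.23 against 4.64 log2 CPM (ratio 0.761). In those 2 libraries of litter F, Tbr1, Cux2 and Tle4 were each also at their lowest in each genotype.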

How the results depend on the processing

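The test was repeated under 27 alternatives, of which the fit without litter B was chosen after seeing the data. No layer factor was called between genotypes or sexes in any fit that held the term. Between litters 6 to 8 were called where litter was a term, except 1 without litter B. The number of all genes called between genotypes, 1 in the report, was 34 with the likelihood ratio test, 17 with DESeq2, 2 with genotype and litter only, 0 with total counts only, 0 without litter B, 7 without replicate 7 of both genotypes and 0 to 7 with single libraries left out (7 without Capn15 KO replicate 7, 6 without WT replicate 7). The likelihood ratio test called 2 partners. With the replicate block in place of litter, 0 genes and 0 members were called, and no call on a member changed. Cux1, Pou3f2 and Foxp2 turned direction. Cux1 was at 0.0 (just below 0) with upper-quartile factors, −0.003 with genotype and sex only, −0.016 without replicate 7 of both genotypes and −0.019 to 0.023 with single libraries left out, being −0.016 without Capn15 KO replicate 7 and −0.002 without Capn15 KO replicate 3. Pou3f2 was at −0.004 with genotype and sex only and −0.056 to 0.06 with single libraries left out, and Foxp2 at −0.052 to 0.083, lowest without Capn15 KO or WT replicate 4. The cause was not tested. Fezf2 stayed between 0.10 and 0.14 and Tbr1 between 0.06 and 0.17 in all of them; their lowest FDRs were 0.455 (likelihood ratio test) and 0.291 (without WT replicate 4). Counts of 580 or more per member limit precision less than the spread between brains, with SE of 0.0251 to 0.0475.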
